A study of Medicago truncatula with 12 samples.

Results

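The late transcript profiles of *Medicago truncatula* seedlings under drought and under salt were compared at 12 h of treatment. The comparison used 2 of the 12 RNA-seq libraries, drought 12 h and salt 12 h, with the 0 h library of each stress as its own control. All seedlings were wild-type plants of the Jemalong A17 line, 4 weeks old, and whole seedlings were sampled. For drought the seedlings were placed on dry filter paper, for salt they stood in nutrient solution with NaCl, and another set was kept in the cold, each for 0, 2, 6 and 12 h. The 0 h seedlings were taken before treatment. There was 1 library for each stress and time, so no difference below has a replicate check among these libraries. The text gives levels, fold changes and counting intervals without p-values. Because whole seedlings were used, a change in the share of an organ or cell type and a change in transcript level per cell cannot be told apart.

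Expression was given as FPKM, the fragments of a gene divided by its transcript length and by the mapped fragments of the library. Genes were kept when FPKM was at least 1 in either 12 h library, which left 22324 of 54073 genes. Of these, 20766 reached that level in drought, 21065 in salt and 19507 in both. A gene was counted as different when the 2 values were at least 2-fold apart, the cutoff used in the study. The fragments on genes numbered 12368392 in the drought 12 h library and 13272591 in the salt 12 h library, in a range of 12205790 to 25437071 over the 12 libraries. The salt 0 h library stood apart from the other controls, with 6.30% of genes at least 2-fold away from cold 0 h, against 2.34% for drought 0 h, so the main counts that rest on it are also given without it, with the mean of cold 0 h and drought 0 h as control of both stresses.

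Drought and high salt both lower the water potential around the root, and plants meet this osmotic stress with abscisic acid signalling, stomatal closure and the build-up of sugars and other compatible solutes. Salt adds an ionic load, since sodium and chloride enter the root and have to be exported or stored in the vacuole. Sugar transport is part of both responses, and the SWEET proteins, which let sugars pass through membranes down their concentration gradient, are the gene family that could be named in these files. In plants studied so far, clades I and II of the family carry mainly hexoses, clade III mainly sucrose, and clade IV fructose across the vacuolar membrane. The other identifiers were not paired with gene names in the sources used here, so the remaining genes are described by their levels and counts.

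The primers that the study designed for 3 *MtSWEET* genes are shown here because these genes had higher transcript levels in drought than in salt at 12 h. The pairs for *MtSWEET7* and *MtSWEET9b* were made to clone the coding sequence for yeast assays, and in their forward primers the capitals mark the start codon, with a cloning site before it. The pair for *MtSWEET13* was made for qRT-PCR.
MtSWEET7 forward primer: gaattcATGggagaagagcttgga
MtSWEET7 reverse primer: gtcgacttacttggactgtttgtt
MtSWEET9b forward primer: gaattcATGttttccttttctgat
MtSWEET9b reverse primer: gtcgacaacaatattctctttcat
MtSWEET13 forward primer: tgtgggatttggcacgattg
MtSWEET13 reverse primer: ccacaacgttcgggagagta

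At 12 h, most genes had similar levels under both stresses. Of the 22324 genes, 17233 (77.2%) were within 2-fold, 2306 (10.3%) were higher in drought and 2785 (12.5%) were higher in salt. The median log2 ratio of drought over salt was -0.05, with quartiles of -0.49 and 0.41, and percentiles 5 and 95 were -1.74 and 1.54. At least 4-fold, 767 genes were higher in drought and 1016 in salt, and at least 16-fold the counts were 187 and 294. Some genes were listed at 0 in one of the libraries. There were 130 genes at 0 in salt that reached at least 1 FPKM in drought, the highest at 12.3 FPKM, and 189 genes at 0 in drought that reached at least 1 FPKM in salt, the highest at 14.9 FPKM.

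The distance between the stresses was greater at 12 h than at the other times. With the same filter applied to each pair of libraries, 6.05% of genes differed between drought and salt at 0 h, 16.9% at 2 h, 16.1% at 6 h and 22.8% at 12 h. The SD of the log2 ratio over genes of at least 5 FPKM was 0.23, 0.54, 0.49 and 0.67 at these times. The balance between directions also moved. At 2 h, 2015 genes were higher in drought and 1881 in salt, at 6 h 1056 and 2615, and at 12 h 2306 and 2785. Both late libraries remained much farther from cold, with 37.7% of genes differing between drought 12 h and cold 12 h and 38.3% between salt 12 h and cold 12 h.

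**Figure D1:**
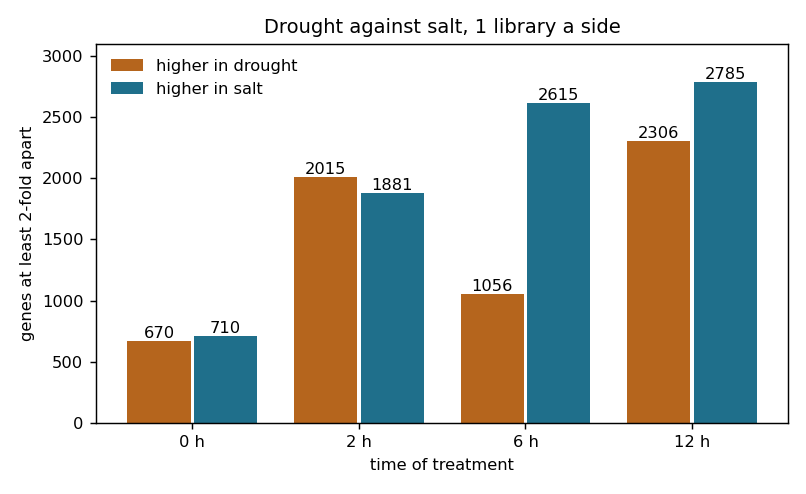
Genes at least 2-fold apart between the drought and salt libraries at 0, 2, 6 and 12 h (x axis, time; y axis, number of genes; brown bars, higher in drought; blue bars, higher in salt; 1 library a side). The 12 h bars, 2306 and 2785 genes, are each taller than the bars of the same colour at earlier times.

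The step between 6 and 12 h was larger in salt. Between drought 12 h and drought 6 h, 9.68% of genes were at least 2-fold apart, against 16.1% between salt 12 h and salt 6 h. Drought 12 h differed from salt 6 h in 20.5% of genes, and salt 12 h from drought 6 h in 20.2%, so neither 12 h profile was nearer to the other stress's 6 h profile than to its own. How the timing of the 2 courses relates was not tested.

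How far the 2 libraries were apart depended on the level of the gene. Among genes with a mean below 2 FPKM at 12 h, 47.4% differed between drought and salt, while 14.9% of the same genes differed between the 0 h libraries. The filter used the 12 h values, so a gene at this level could enter through its higher 12 h library alone. This favours a gap at 12 h and not at 0 h, so these 2 shares are not on equal terms. At 5 to 20 FPKM the shares were 15.0% at 12 h and 2.13% at 0 h, and at 20 to 100 FPKM they were 13.4% and 0.750%. Above 100 FPKM the share was higher again, with 168 of 788 genes (21.3%) differing at 12 h and 1.02% at 0 h. In this abundant class the direction was also turned, with 94 genes higher in drought and 74 in salt. Transcript length was not given and was inferred from the FPKM of 1 recovered fragment, which can make a gene with few fragments look too short. Of the 4465 genes with the shortest inferred length 39.6% were past 2-fold, and of the 4465 with the longest 10.7%. The part of level and length in these shares was not tested.

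Set against its own 0 h library, each stress moved a large part of the transcriptome by 12 h. In drought, 3078 genes (13.8%) were up and 4572 (20.5%) down, and in salt 4003 (17.9%) were up and 4965 (22.2%) down. Without salt 0 h, the counts were 3081 up and 4582 down in drought and 3900 up and 4882 down in salt. The excess of genes that were down depends on the scaling of the libraries. Division by the median ratio of each library raised the log2 responses by 0.27 in drought and 0.26 in salt, and then 4168 genes were up and 3255 down in drought, and 5046 up and 3721 down in salt. Because both 12 h libraries moved almost equally, the median ratio moved the direct log2 ratio of drought over salt by 0.03 only. Scaling each library to its summed FPKM (TPM) moved it by -0.06. The direct counts were then 2137 genes higher in drought and 3021 in salt, and the late differences defined below 1598 and 2073. Directions between the stresses are given relative to these shifts.

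Genes past 2-fold under one stress were often past 2-fold in the same direction under the other. There were 1945 genes up in both stresses and 2924 down in both, together 4869 (21.8% of the genes tested, 63.6% of those past 2-fold in drought and 54.3% of those past 2-fold in salt). Without the salt 0 h library the shared genes numbered 5151. Under the median ratio the shared genes split into 2748 up and 2013 down. The log2 responses of the 21358 genes with all 4 values above 0 had a Pearson r of 0.68 across genes, and r was 0.78 over the 11063 genes of at least 5 FPKM in all 4 libraries. Genes are not independent replicates, so these are descriptions. The drought 12 h response had an r of 0.58, 0.69 and 0.68 with the salt responses at 2, 6 and 12 h, and the salt 12 h response had an r of 0.48, 0.73 and 0.68 with the drought responses at 2, 6 and 12 h.

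The shared responses had nearly the same size under both stresses. The genes up in both had a median log2 response of 1.94 in drought and 2.04 in salt, and the genes down in both had medians of -1.71 and -1.77. Of the shared genes, 1183 (24.3%) were at least 2-fold apart when the 12 h libraries were compared directly, near the 22.8% of all genes tested, and without salt 0 h the count was 1226 (23.8%). Among those up in both, 216 were higher in drought and 305 in salt, and among those down in both the counts were 312 and 350.

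Genes past 2-fold in only 1 stress had median responses in the same direction in the other, where the smaller size follows from how the sets were made. The 1001 genes up in drought alone had a median log2 response of 1.42 in drought and 0.46 in salt. Within 2-fold in the direct comparison were 511 (51%) of them, against 77.2% of all genes tested. The 1433 genes down in drought alone had medians of -1.31 in drought and -0.55 in salt, and 828 (57.8%) of them were within 2-fold directly. The 1843 genes up in salt alone had medians of 0.39 in drought and 1.45 in salt, and 859 (46.6%) of them were within 2-fold directly. The 1909 genes down in salt alone had medians of -0.48 in drought and -1.41 in salt, and 1040 (54.5%) of them were within 2-fold directly. Without salt 0 h these sets held 862, 1437, 1608 and 1810 genes.

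Genes that moved past 2-fold in opposite directions were rare, 347 (1.55%). There were 132 genes up in drought and down in salt and 215 genes down in drought and up in salt. Without salt 0 h these counts were 70 and 143, or 213 in all (0.954%). At 6 h, 13 of the 132 and 38 of the 215 were past 2-fold in the same opposite directions, where 40 (0.179%) and 93 (0.417%) of all genes tested were, and none had the reverse pattern. The median log2 responses of the 132 genes at 6 h were 0.97 in drought and -0.78 in salt, and those of the 215 genes were -0.74 in drought and 1.19 in salt. Their starting points differed, too. Of the 132 genes, 66 were at least 2-fold apart between drought 0 h and salt 0 h, and of the 215 genes 99 were, against 5.07% of all genes tested, and the 0 h values enter the responses. In the higher 12 h library, 29 of the 132 and 51 of the 215 reached 10 FPKM. The share of all genes that did so was not counted, but their medians were 7.15 FPKM in drought 12 h and 7.41 FPKM in salt 12 h.

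**Figure D2:**
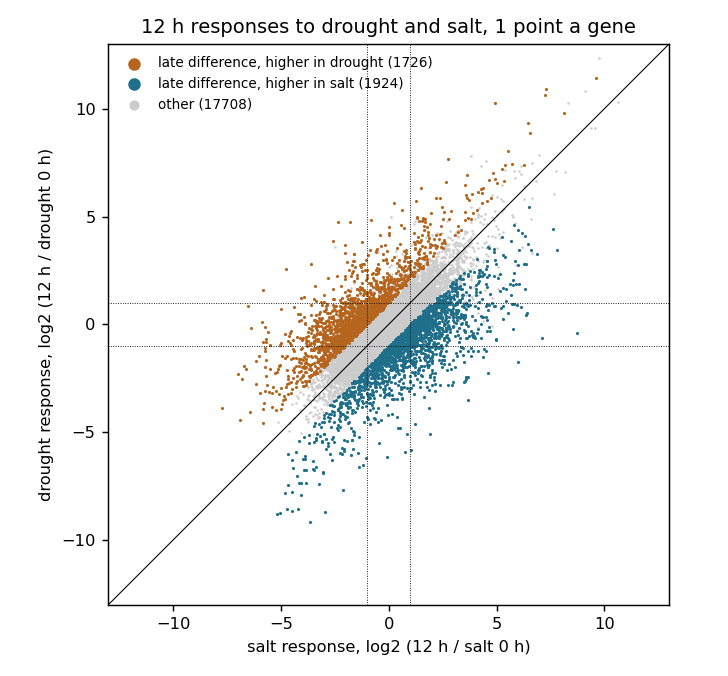
Log2 response at 12 h to drought (y axis, drought 12 h over drought 0 h) and to salt (x axis, salt 12 h over salt 0 h), 1 point for each of the 21358 genes with all 4 values above 0. The cloud follows the diagonal of equal responses (r = 0.68), dotted lines mark 2-fold, and the coloured points are the 1726 genes of the late difference that were higher in drought (brown) and the 1924 that were higher in salt (blue).

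A late difference was defined as a gene at least 2-fold apart at 12 h whose 2 responses also differed by at least 2-fold in the same direction, so that a gap already present at 0 h does not make one. The responses alone differed by at least 2-fold in 4986 genes (22.3%), with 2402 higher in drought and 2584 higher in salt. By this rule 1726 genes (7.73%) were higher in drought and 1924 (8.62%) higher in salt, 3650 in all. Of the 5091 genes past 2-fold in the direct comparison, 728 had a 0 among the 4 values and 713 others failed the rule. Without salt 0 h, 2133 genes were higher in drought and 2520 higher in salt, 4653 in all, and the shared 0 h values then cancel out of the rule. The genes higher in drought held 67905.8 FPKM in sum in drought 12 h and 22122.1 FPKM in salt 12 h, which is 12.8% and 4.35% of all FPKM in those libraries. The genes higher in salt held 18683.9 FPKM in drought 12 h and 58889.9 FPKM in salt 12 h, or 3.51% and 11.6%.

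The routes to these differences were not mirror images. Among the genes higher in drought, the commonest route was a gene that stayed within 2-fold of 0 h in drought and was down in salt, 792 of 1726 (45.9%). A further 289 (16.7%) were up in drought and within 2-fold in salt, 256 (14.8%) were down in both but less so in drought, 141 were up in both, 150 were within 2-fold in both, and 98 were up in drought and down in salt. Among the genes higher in salt, 635 of 1924 (33.0%) were within 2-fold in drought and up in salt, and 534 (27.8%) were down in drought and within 2-fold in salt. The remaining genes were down in both (268), within 2-fold in both (165), up in both (162), or down in drought and up in salt (160). Under the median ratio the first route still held the most genes in each direction, with 713 (40.4%) of the genes higher in drought and 685 (36.4%) of the genes higher in salt, and without salt 0 h it held 900 (42.2%) and 760 (30.2%). Without that library, 66 genes higher in drought were up in drought and down in salt, and 321 genes higher in salt were within 2-fold in both.

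**Figure D3:**
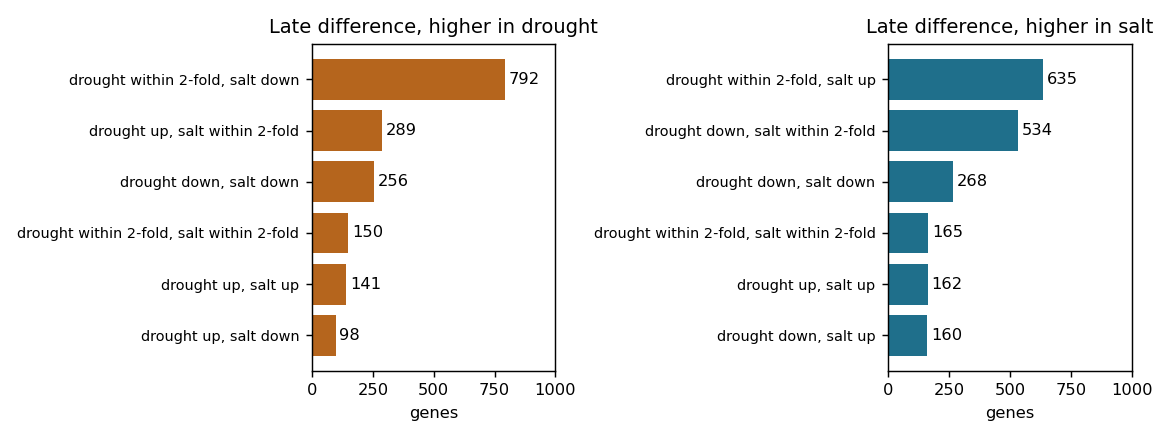
Number of genes (x axis) by the 12 h response to each stress (rows; up, down or within 2-fold of own 0 h), for the 1726 genes of the late difference higher in drought (left) and the 1924 higher in salt (right). The longest bar on the left is the 792 genes that were down in salt and within 2-fold in drought, and on the right the 635 genes that were up in salt and within 2-fold in drought.

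The members of the largest routes show the courses behind these counts. In the 792 genes, the median log2 drought response was 0.00 at 2 h, -0.38 at 6 h and -0.08 at 12 h, and the median log2 salt response was -0.58, -0.78 and -1.92. Their median level was 5.55 FPKM in drought 12 h and 1.63 FPKM in salt 12 h. In the 635 genes, the median log2 drought response was 0.42 at 2 h, 0.46 at 6 h and -0.01 at 12 h, while the median log2 salt response was 0.80, 1.19 and 1.87. Their median level was 3.09 FPKM in drought 12 h and 11.8 FPKM in salt 12 h. The 141 genes up in both and higher in drought had the highest median level, 40.1 FPKM in drought 12 h and 9.26 FPKM in salt 12 h, and their median log2 drought response was 1.45, 3.14 and 4.13 at 2, 6 and 12 h, with 1.54, 2.03 and 1.90 in salt.

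By the medians, the genes higher in drought had most of their gap between 6 and 12 h, a step that choosing them at 12 h favours. The genes higher in salt were already partly apart at 6 h. Over the 1726 genes higher in drought, the median log2 ratio of drought over salt was -0.09, 0.37, 0.40 and 1.64 at 0, 2, 6 and 12 h, and 389 (22.5%) were past 2-fold that way at 2 h and 386 (22.4%) at 6 h, against 7.21% and 4.13% of all genes tested. Over the 1924 genes higher in salt the median was 0.04, -0.17, -0.80 and -1.67, and 436 (22.7%) were past 2-fold that way at 2 h and 781 (40.6%) at 6 h, against 7.52% and 9.72% of all genes. Past 2-fold the other way were 258 (13.4%) of them at 2 h and 39 (2.03%) at 6 h, against 7.21% and 4.13% of all genes. Of the genes higher in drought, 130 (7.53%) and 122 (7.07%) were past 2-fold toward salt at these times. The 2 h and 6 h libraries played no part in choosing these genes. Of the genes higher in drought, 307 (17.8%) were at least 2-fold up between drought 6 h and drought 12 h, and 845 (49.0%) were at least 2-fold down between salt 6 h and salt 12 h. Of the genes higher in salt, 478 (24.8%) were at least 2-fold down in that step in drought and 405 (21.0%) at least 2-fold up in salt. Over all genes tested these 4 shares were 4.34%, 8.77%, 4.52% and 5.03%. The 12 h values of these genes were used to choose them, so the shares and the wider median gaps at 12 h are descriptions.

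Cold was used as an outside view of the same genes. Of the genes higher in drought, 119 (6.89%) were up and 493 (28.6%) down at 12 h of cold against cold 0 h, while over all genes tested 6.50% were up and 12.9% down. Of the genes higher in salt, 254 (13.2%) were up and 368 (19.1%) down in cold. The cold 12 h level lay nearer to the drought 12 h level than to the salt 12 h level in 50.8% of the first set. The share was 50.7% of the second set and 49.5% of all genes, each over genes above 0 in the 3 libraries. Genes up in both drought and salt were up in cold in 24.9% of cases and genes down in both were down in cold in 21.9%, while the genes down in salt alone were down in cold in 26.1%.

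**Figure D4:**
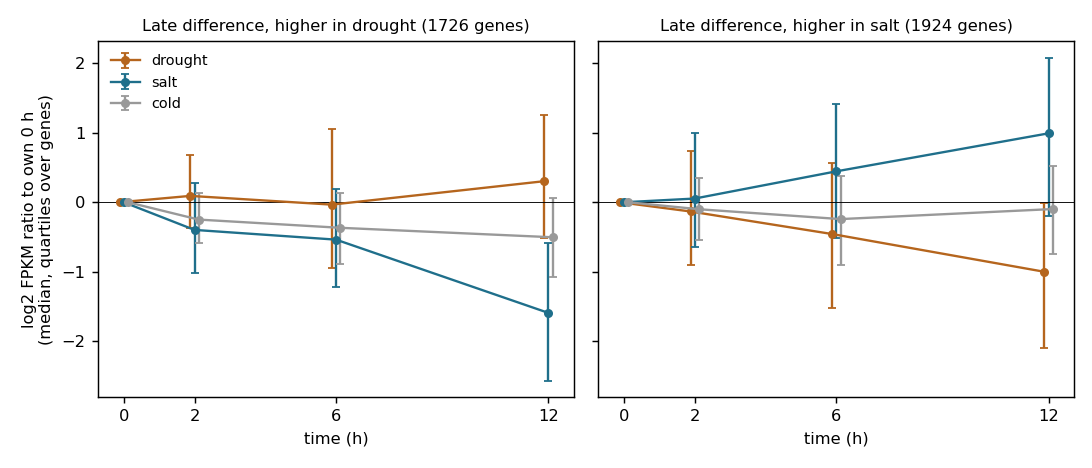
Median log2 FPKM ratio to the own 0 h library (y axis; bars, quartiles over genes, points shifted slightly sideways) at 0, 2, 6 and 12 h (x axis) in drought (brown), salt (blue) and cold (grey), for the late differences higher in drought (left, 1726 genes) and higher in salt (right, 1924 genes). At 12 h the medians are 0.30 in drought and -1.59 in salt on the left, and -1.0 in drought and 0.99 in salt on the right.

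Abundant transcripts were among the late differences. The 5 most abundant genes higher in drought had 1231 to 1954 FPKM in drought 12 h and 453 to 696 FPKM in salt 12 h. Of these, 2 were at 226 and 276 FPKM in drought 0 h and were thus higher at 12 h, while the other 3 were at 1269 to 2014 FPKM in drought 0 h. The 5 most abundant genes higher in salt had 269.5 to 1062 FPKM in drought 12 h and 956 to 2471 FPKM in salt 12 h, and all were lower in salt 0 h, at no more than 1057 FPKM. None of these 10 genes was more than 4-fold apart.

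The 4 identifiers with at least 10 FPKM in the higher library and the largest differences in response, where a library at 0 was ranked with 3 fragments in its place, are given with their values. MTR_1g008590 had 98.6, 132, 44.4 and 175 FPKM at 0, 2, 6 and 12 h of drought, and 114, 34.2, 37.6 and 1.25 FPKM at the same times of salt. Its 12 h values rested on 3370 fragments in drought and 26 in salt, a log2 ratio of 7.13 (95% Clopper-Pearson counting interval 6.57 to 7.74). The courses were at similar levels at 6 h, and at 12 h the gene was far lower in salt. MTR_1173s0010 had 0.646, 4.24, 8.20 and 12.3 FPKM at these times of drought and 1.92, 3.53, 0.875 and 0 FPKM in salt. With 119 fragments in drought 12 h and none in salt 12 h, it was at least 42.8-fold higher in drought, taking 3 fragments per library as the limit of detection.

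On the salt side, MTR_4g088760 had 0.548, 0.176, 2.51 and 0.161 FPKM at 0, 2, 6 and 12 h of drought and 0.20, 4.62, 8.81 and 12.7 FPKM in salt. It had 3 fragments in drought 12 h and 254 in salt 12 h, a log2 ratio of -6.29 (counting interval -8.58 to -4.73). MTR_1g077480 had 0.330, 0.028, 1.06 and 0.253 FPKM in drought and 0.039, 0.464, 3.86 and 16.4 FPKM in salt. Its 12 h values rested on 6 and 421 fragments, a log2 ratio of -6.02 (counting interval -7.48 to -4.89). Both were higher in salt from 2 h on, with a passing rise at 6 h in drought. All these intervals cover counting error only and compare the libraries, not the stresses.

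Neighbouring genes often had the same late difference. Identifiers of this annotation run along the chromosomes, and of 403 adjacent pairs in which both genes were late differences, 314 (77.9%) had the same direction. A gene higher in drought was followed by another in 16.1% of cases, against 6.82% for all pairs, and a gene higher in salt in 15.7%, against 7.84%. Neighbours can be copies of each other that share reads, which was not examined. The longest runs were 5 genes higher in drought on chromosome 4, at up to 9.38 FPKM in drought 12 h and 2.91 FPKM in salt 12 h, and 6 genes higher in salt on chromosome 4, at up to 2.76 FPKM in drought 12 h and 6.40 FPKM in salt 12 h. By chromosome, genes higher in salt outnumbered those higher in drought on 6 of 8. On chromosome 6, 9.67% of genes were late differences higher in drought and 7.94% higher in salt, and on chromosome 8 the shares were 8.59% and 6.93%, near the 7.73% and 8.62% of all genes.

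The *MtSWEET* family showed the contrast gene by gene. Of its 25 genes, 12 passed the filter of 1 FPKM in either 12 h library, and the other 13 stayed at or below 0.955 FPKM in both. Of the 12, *MtSWEET3a*, *MtSWEET3b*, *MtSWEET7*, *MtSWEET9b*, and *MtSWEET13* were at least 2-fold higher in drought (10.3% of all genes were), *MtSWEET1a* and *MtSWEET2b* were at least 2-fold higher in salt (12.5% of all genes), and 5 were within 2-fold. *MtSWEET3a* and *MtSWEET3b* passed the filter through drought 12 h alone, and *MtSWEET1a* through salt 12 h alone. The filter thus favoured the calls of these genes. The median log2 ratio was 0.87 without *MtSWEET3b*, which was at 0 in salt 12 h and has no ratio, against -0.05 over all genes with a ratio. Summed over the 25 genes, the family held 317.6 FPKM in drought 12 h and 219.9 FPKM in salt 12 h, and 197.0 FPKM and 205.7 FPKM at 0 h. Of the 12 h sums, *MtSWEET13* alone held 197.2 FPKM in drought and 76.7 FPKM in salt. This gap is wider than that between the sums, so the higher sum in drought rests on this gene. By clade, 2 of 6 genes tested in clade I were higher in drought and 2 in salt, the single gene tested in clade II and 2 of 4 in clade III were higher in drought, and the clade IV gene was within 2-fold.

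Against their own 0 h, 5 of the 12 genes were up in drought (13.8% of all genes) and 3 down (20.5%), 8 together (34.3% of all genes). In salt 4 were up (17.9%) and 3 down (22.2%), 7 together (40.2% of all genes). In these libraries, *MtSWEET7* and *MtSWEET9b* were up in both stresses, and *MtSWEET3c* and *MtSWEET16* were down in both. *MtSWEET1a* moved in opposite directions, as did 1.55% of all genes. The responses differed by at least 2-fold in 5 of the 9 genes with all 4 values above 0, where 22.3% of all genes did, namely *MtSWEET2a*, *MtSWEET13* and *MtSWEET14* toward drought and *MtSWEET1a* and *MtSWEET2b* toward salt. By the late rule, *MtSWEET13* was higher in drought (7.73% of all genes) and *MtSWEET1a* and *MtSWEET2b* were higher in salt (8.62%). Without salt 0 h, *MtSWEET3a* was also up in salt, which made 5 genes, and the other up and down counts of the family were as before. With a control shared by both stresses, the difference in response is the direct log2 ratio. It was 0.88 for *MtSWEET2a* and 0.87 for *MtSWEET14*, both short of 2-fold. By the same identity *MtSWEET3a*, *MtSWEET7* and *MtSWEET9b* joined the late differences, 6 genes in all, which adds nothing on their responses to their own 0 h.

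In clade III, whose members carry mainly sucrose, *MtSWEET13* had the highest level at 12 h under both stresses. It had 46.4, 29.8, 172 and 197 FPKM at 0, 2, 6 and 12 h of drought, and 55.8, 88.1, 148 and 76.7 FPKM at the same times of salt. The order of the stresses turned with time, with salt higher at 2 h (log2 drought over salt -1.56), similar levels at 6 h (0.22) and drought higher at 12 h (1.36, counting interval 1.28 to 1.45). Its log2 response at 12 h was 2.09 in drought and 0.46 in salt. In cold it had 104 FPKM at 12 h, between the other stresses.

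*MtSWEET9b*, whose Arabidopsis relative SWEET9 exports sucrose in nectaries, was nearly silent before treatment, with 5 fragments in drought 0 h and 1 in salt 0 h. It reached 0.966, 45.1 and 28.9 FPKM at 2, 6 and 12 h of drought and 1.21, 3.75 and 6.29 FPKM in salt. At 12 h the log2 ratio was 2.20 (counting interval 1.84 to 2.57). Because the drought 0 h value was also the higher one, at 0.341 FPKM against 0.081 FPKM, the difference in response was 0.13 with a counting interval of -2.99 to 3.25, and at this depth the response ratio could not show whether the stresses differed.

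The neighbours *MtSWEET14* and *MtSWEET12*, next to each other by identifier on chromosome 8, leaned in opposite directions, both within 2-fold. *MtSWEET14* had 18.9, 17.5, 21.9 and 21.9 FPKM over the drought course and 22.8, 20.4, 15.8 and 11.9 FPKM over the salt course, with a log2 ratio at 12 h of 0.87 (counting interval 0.63 to 1.12). *MtSWEET12* had 73.9, 87.5, 47.8 and 37 FPKM in drought and 74.2, 41.9, 39.8 and 56.7 FPKM in salt, with a log2 ratio at 12 h of -0.61 (counting interval -0.73 to -0.50). At 2 h *MtSWEET12* had been higher in drought, at a log2 ratio of 1.06. In Arabidopsis, SWEET11 and SWEET12 of this clade load sucrose into the phloem.

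**Figure D5:**
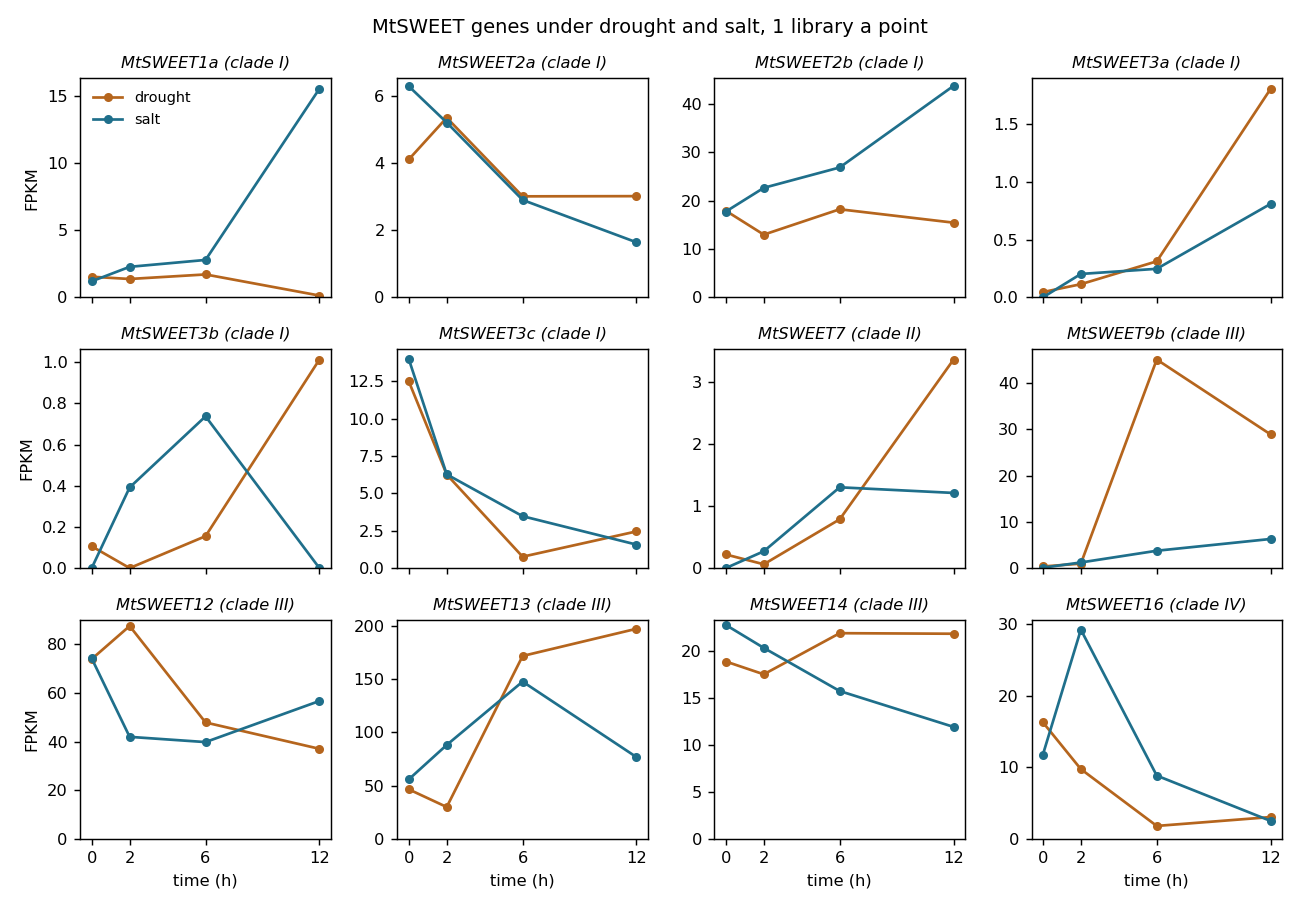
FPKM (y axis, from 0, scale differs by panel) of the 12 *MtSWEET* genes tested at 0, 2, 6 and 12 h (x axis) of drought (brown) and salt (blue), 1 library a point. *MtSWEET13* ends at 197 FPKM in drought and 76.7 in salt, and *MtSWEET1a* at 0.135 FPKM in drought and 15.6 in salt.

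In clade I, *MtSWEET1a* had the widest gap of the family. It had 1.54, 1.37, 1.71 and 0.135 FPKM at 0, 2, 6 and 12 h of drought, and 1.20, 2.28, 2.79 and 15.6 FPKM at these times of salt. At 12 h the values rested on 2 fragments in drought and 248 in salt, a log2 ratio of -6.84 (counting interval -9.90 to -4.98). Up to 6 h both courses were within 2-fold of each other, and at 12 h of cold the gene was at 0.692 FPKM. Its log2 response was -3.51 in drought and 3.70 in salt.

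*MtSWEET2b* stayed between 13 and 18.2 FPKM throughout the drought course, ending at 15.4 FPKM, while in salt it had 17.7, 22.6, 26.9 and 43.7 FPKM. The log2 ratio at 12 h was -1.50 (counting interval -1.66 to -1.34). Cold gave 65.8 FPKM at 6 h, above any salt value. Its relative *MtSWEET2a* had 4.10, 5.34, 3.0 and 3.01 FPKM in drought and 6.28, 5.2, 2.90 and 1.64 FPKM in salt, a log2 ratio at 12 h of 0.88 (counting interval 0.16 to 1.62), within 2-fold and on the other side. In Arabidopsis, SWEET2 stores sugar in root vacuoles.

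*MtSWEET3a* and *MtSWEET3b*, adjacent by identifier on chromosome 3, were low throughout. *MtSWEET3a* had 0.046, 0.114, 0.311 and 1.80 FPKM in drought and 0, 0.202, 0.247 and 0.808 FPKM in salt, with 31 and 15 fragments at 12 h and a log2 ratio of 1.16 (counting interval 0.22 to 2.15). *MtSWEET3b* had 15 fragments in drought 12 h and none in salt 12 h, which makes it at least 5.40-fold higher in drought with 3 fragments as the limit. In salt it had been at 0.737 FPKM at 6 h, against 0.155 FPKM in drought 6 h. With 1 added to each FPKM, the log2 ratio of *MtSWEET3a* was 0.63, below the threshold.

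*MtSWEET3c* had 12.5, 6.26, 0.760 and 2.45 FPKM in drought and 14.0, 6.27, 3.47 and 1.57 FPKM in salt. It was the same at 2 h, lower in drought at 6 h (log2 ratio -2.19) and within 2-fold at 12 h (0.64, counting interval -0.07 to 1.38). At 12 h of cold it stood at 20.8 FPKM, far above both. The study's qRT-PCR of *MtSWEET3c* went the other way under drought, with a rise that peaked at 12 h. The paper names this as a difference from its RNA-seq values.

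The only clade II gene tested, *MtSWEET7*, had 0.220, 0.061, 0.788 and 3.37 FPKM in drought and 0, 0.271, 1.31 and 1.21 FPKM in salt. It had 36 and 14 fragments at 12 h, a log2 ratio of 1.47 (counting interval 0.55 to 2.48), and 0.98 with 1 added to each FPKM, just short of the threshold. *MtSWEET16* of clade IV, whose Arabidopsis relative lies in the vacuolar membrane, had 16.3, 9.73, 1.79 and 3.03 FPKM in drought and 11.8, 29.2, 8.82 and 2.49 FPKM in salt. The gap between the courses was wide at 2 h (log2 ratio -1.59) and 6 h (-2.30) and had closed at 12 h (0.28, counting interval -0.37 to 0.94).

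*ACTIN*, the reference gene of the study's qRT-PCR, had 275, 253, 174 and 168 FPKM at 0, 2, 6 and 12 h of drought and 262, 228.5, 202 and 185 FPKM in salt. Its log2 ratio at 12 h was -0.14 (counting interval -0.19 to -0.09), and its log2 response was -0.71 in drought and -0.50 in salt, so a value relative to *ACTIN* would raise the drought response by slightly more than the salt response.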

How the data were processed

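RNA-seq libraries of whole seedlings were used, 1 for each of cold, drought and salt at 0, 2, 6 and 12 h, grouped by their labels. The authors deposited 1 FPKM value per gene and library; their methods name Tophat for alignment to the Mt4.0v1 genome and StringTie for FPKM, while the submitters' processing notes name HTSeq and DESeq, and the labels describe 3′ tag libraries, so how the files were made is not settled. Whole fragments were recovered from the steps between low FPKM values (tolerance 0.05 fragments) for all 37274 genes above 0.

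Folds are FPKM ratios without a pseudocount, called at 2 or 0.5 for genes of at least 1 FPKM in either 12 h library; a 0 was called against a value of at least 1. Intervals are 95% Clopper-Pearson intervals on fragments and cover counting error only. With 1 library a side no test was run. Named genes were the *MtSWEET* genes passing the filter, *ACTIN* and at most 2 identifiers per direction, those with the largest response difference, at least 10 FPKM in the higher library, and a late difference, where a library at 0 was given 3 fragments. None of the identifiers (0) was found among the 39590 entries of the RefSeq gene table, so the planned gene lists and tissue markers could not be applied, and the labelled tissue was not checked against markers. The genes, rules and lists were chosen with earlier results of these data known. Primer sequences came from the study's primer table. The steps were tested on simulated data. Alternatives covered the filter, pseudocount, threshold, scaling, depth, counting interval and control. Python 3.11.15 was run with pandas 2.3.3 and numpy 2.4.6 for the values, scipy 1.17.1 for the intervals and matplotlib 3.10.9 for plots.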

Additional observations from a re-analysis of the deposited data

Results flagged for a closer look

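Among the named genes, 3 had responses past 2-fold in opposite directions under the 2 stresses, a difference that was not tested because each condition had 1 library. For *MtSWEET1a* the log2 response at 12 h was -3.51 in drought and 3.70 in salt, with 29 and 19 fragments in the 0 h libraries. For MTR_1173s0010 the log2 response was 4.25 in drought, and in salt 12 h it was listed at 0, at least 6.70-fold lower than in salt 0 h with 3 fragments as the limit. For MTR_4g088760 the log2 response was -1.76 in drought, on 3 fragments at 12 h and 13 at 0 h with a counting interval of -4.22 to 0.10, and 5.98 in salt.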

How the results depend on the processing

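Of 75 alternatives for the 6 counts of genes, 63 stayed within 1.5 times the reported count. Where both stresses shared a control, the response and late counts were the same by construction. With 1 added to each FPKM the direct difference fell to 3262 genes. At a 1.5-fold threshold, 9148 genes differed directly, 8969 in response and 6927 in both, 12111 responded to drought and 8308 were shared. At 3-fold the counts were 2693, 2485, 1726, 4120 and 2380, with 5180 genes past the threshold in salt. Under the median ratio the majority of the responses turned to genes that were up, as given with the responses, and under TPM the salt response had 4497 genes up and 4366 down. The control without salt 0 h was chosen after seeing the data and took the genes with opposite responses to 213, against 347 with the own 0 h libraries. For 15 named genes, 55 of 60 alternatives stayed within the counting interval and 0 reversed direction; the other 5 were a pseudocount of 1 on the lowest values and TPM on *ACTIN*. The counting interval was not run as a condition on the response difference. No paired analysis was possible because each condition had 1 library, and for the same reason no replicate could be left out. Low levels limit the counts, as genes below 2 FPKM differed in 47.4% of cases at 12 h and 14.9% at 0 h, where the filter on the 12 h values favours a gap at 12 h.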

Other observations

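Identifiers that begin with EPlMTRG, a class apart from the MTR gene models, stood out in the comparison of the 12 h libraries. Of 195 such genes tested, 57 were at least 2-fold higher in drought and 77 in salt, 68.7% in all, where 22.8% of all genes tested were, and 33.3% of them were past 2-fold between the 0 h libraries, where 5.07% of all genes were. Their median was 3 fragments in each 12 h library, so most of these calls rest on few fragments. At such levels the filter on the 12 h values also favours a gap at 12 h over one at 0 h. Late differences numbered 14 (7.18%) higher in drought and 15 (7.69%) higher in salt, near the 7.73% and 8.62% of all genes.

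Tight runs of neighbouring genes with high levels included 3 genes higher in drought on chromosome 4, at up to 110 FPKM in drought 12 h and 5.27 FPKM in salt 12 h, and 4 genes higher in drought on chromosome 7, at up to 49.8 FPKM and 7.74 FPKM. On the salt side, 3 genes on chromosome 2 reached 187 FPKM in drought 12 h and 607.9 FPKM in salt 12 h. These runs were picked out after their values were seen.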
